A study of Mus musculus with 10 samples.

Results

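The 10 genes described here carry TGF-beta signalling in T cells from display of the latent cytokine to its nuclear readout. They are *Lrrc32* (the gene of GARP), *Nrp1*, *Tgfb1*, *Furin*, *Tgfbr1*, *Tgfbr2*, *Tgfbr3*, *Smad3*, *Smad7* and *Ski*. They were taken by symbol, 10 of 48321 symbols in the count files, and all 10 were among the 13796 genes past the filter on low counts. RNA was sequenced from spleen CD4+ T cells of C57BL/6 mice that carried a GFP reporter of *Foxp3*, the lineage factor of regulatory T cells (Tregs). Cells were sorted by GFP and by CD25, the IL-2 receptor alpha chain. The 5 groups of 2 libraries each were WT Tregs (Gfp+_CD25+), WT non-Tregs (Gfp-_CD25-), and KO Tregs, KO FoxP3+CD25- cells (Gfp+_CD25-) and KO non-Tregs from *Satb1* F/F:*Thpok-cre* mice. *Satb1* encodes a genome organizer. *Thpok-cre* acts in the whole CD4 lineage, so by design the deletion covers all KO populations, which was not checked here. WT and KO mice shared the reporter, and the labels list no treatment or culture and no age (the study's methods describe young adult mice of mixed sexes). A WT FoxP3+CD25- group was not analysed here. Libraries of one genotype that share a number were read as 1 mouse, which makes 4 mice. The labels imply this and do not state it.

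TGF-beta is secreted as a latent complex with its own propeptide. GARP tethers that complex to the surface of Tregs and platelets, integrins that hold the beta-8 chain free the cytokine from it, and furin cuts the precursor. Active TGF-beta binds the type II receptor (*Tgfbr2*), which recruits and phosphorylates the type I receptor (*Tgfbr1*). SMAD2 and SMAD3 then carry the signal to the nucleus, SMAD7 feeds back on the receptor, and SKI represses SMAD targets. Neuropilin-1 is a co-receptor for semaphorins and VEGF that also binds TGF-beta, and in mice it is known as a marker of most thymus-derived Tregs.

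The libraries held 6094952 to 12410064 reads on genes. Levels are CPM, the gene reads of each library scaled to a common total with TMM factors, and are given as means ± SD of 2 libraries or as the value of replicate 1 and then of replicate 2. A call is a false discovery rate (FDR) under 0.05 in edgeR's quasi-likelihood test with Benjamini-Hochberg adjustment over all genes tested. With 2 libraries a group an exact permutation test of a single gene cannot go below p = 0.333. *Foxp3* and *Il2ra* followed the gates: *Foxp3* was 618 to 739 CPM in the 4 Treg libraries, 361 and 318 CPM in KO FoxP3+CD25- cells and 18.0 to 38.9 CPM in the non-Treg libraries. *Il2ra*, the CD25 gene, was 627 CPM or more in Tregs and 16.8 and 16.7 CPM in KO FoxP3+CD25- cells. Counts of *Satb1* do not separate the deleted exon and were not lower in KO Tregs (566 ± 45.5 CPM) than in WT Tregs (428 ± 69.6 CPM), so they check nothing about the deletion. They were called higher in KO FoxP3+CD25- cells than in KO Tregs (log2 fold change 0.95, FDR 0.00377) and WT Tregs (1.35, FDR 0.000298). Within WT, they were called lower in Tregs than in non-Tregs (-0.99, FDR 0.00178). Both libraries of WT mouse 1 held *Xist* (1854 and 1355 CPM) and no *Ddx3y* reads, while the other 8 libraries had at most 4 *Xist* reads and 181 to 257 CPM of *Ddx3y*. WT mouse 1 was thus the 1 female by these genes. The 5 B cell markers summed to 16.4 to 20.5 CPM in the 4 Treg libraries and 2.37 to 8.27 CPM in the others, with *Cd79b* at 14.4 to 19.1 CPM in Tregs. The 4 NK cell markers summed to 13.9 to 27.5 CPM in non-Tregs and 2.48 to 7.47 CPM in the other cells. The part of either in the results was not tested. The 8 CD4+ T cell markers summed to 4072 to 5910 CPM in every library. The 5 platelet and megakaryocyte markers, of cells that also display GARP, summed to 1.98 to 4.27 CPM, and the 5 dendritic cell markers to 0.206 to 2.81 CPM. The 6 monocyte, macrophage and neutrophil markers summed to 13.9 to 21.3 CPM and the 2 CD8 T cell markers to 9.38 to 16.6 CPM. The 4 endothelial markers summed to 177 to 334 CPM, and of them *Pecam1* alone passed the filter on low counts. The part of these cells in the results was not tested. In sorted bulk samples, fewer cells of a type and less RNA per cell cannot be told apart.

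**Figure D1:**
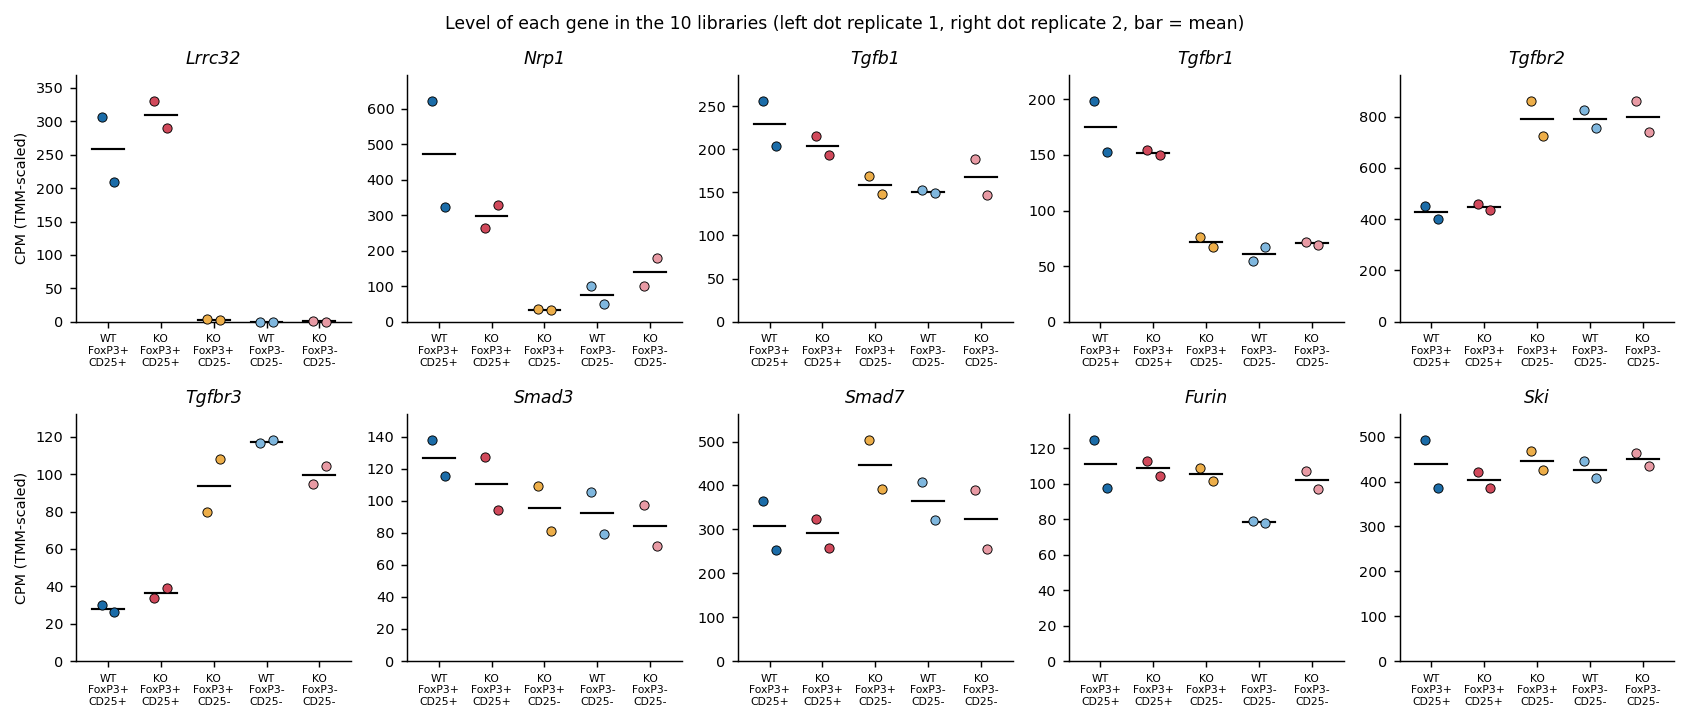
Level of the 10 genes in each of the 10 libraries, in TMM-scaled CPM on linear axes that start at 0, by sorted group. Dots are libraries (replicate 1 left, replicate 2 right) and bars are means of 2. *Lrrc32*, *Nrp1* and *Tgfbr1* stood high in both Treg groups, *Tgfbr2* and *Tgfbr3* stood low there, and *Nrp1* was lowest in KO FoxP3+CD25- cells (35.1 and 31.7 CPM).

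*Lrrc32*, on the plus strand at chr7:98489283-98502181 (GRCm38, as all positions here), was nearly all or nothing between the gates. It measured 307 and 209 CPM in the WT Treg libraries and 330 and 290 CPM in the KO Treg libraries. KO FoxP3+CD25- cells held 4.20 and 2.41 CPM, which are 26 and 22 reads. Non-Tregs held 2 reads and 0 reads in WT and 8 reads and 0 reads in KO. No Treg library overlapped any other library. Summed over the libraries of a group, the WT Treg to WT non-Treg ratio of levels was 2786 (95% exact interval 771 to 23012) and the KO Treg to KO non-Treg ratio was 526 (267 to 1219). These intervals cover counting error only. A library without a read is below 3 reads, which is 0.242 to 0.492 CPM before scaling. edgeR called the gene higher in Tregs in both genotypes (FDR 4.35e-07 in WT and 1.20e-06 in KO).

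The *Foxp3*-expressing cells outside the CD25 gate had little GARP transcript. KO Tregs stood 98.5 times above KO FoxP3+CD25- cells (74.2 to 134, log2 fold change -6.60 ± 0.38 SE for FoxP3+CD25- against Treg cells, FDR 2.03e-06). Set against non-Tregs, *Lrrc32* in KO FoxP3+CD25- cells was 34.1 times the WT level (8.93 to 289) and 5.34 times the KO level (2.50 to 13.1). The first difference was called (FDR 0.0402) and the second was not (FDR 0.184). The call against WT non-Tregs rests on 48 reads against 2 and was lost when any 1 of the 4 libraries was left out (FDR 0.0923 to 0.332). With the mouse as a block, the difference from KO non-Tregs was called (FDR 0.0383).

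Per kilobase of exon, *Lrrc32* ranked below *Ski* alone among the 10 genes in KO Tregs (66.1 ± 6.15 RPKM, against 72.6 ± 4.49 for *Ski* and 64.5 ± 10.3 for *Smad7*), and the ranges of 1 SD about these 3 neighbours overlapped. *Tgfb1* stood at 40.5 RPKM there. In WT Tregs, *Lrrc32* ranked below *Smad7* as well as *Ski*. In KO FoxP3+CD25- cells *Lrrc32* was the lowest of the 10, at 0.705 RPKM, while *Tgfb1* was at 31.5 RPKM. The genes whose log2 CPM followed *Lrrc32* most closely over the 10 libraries were *Swap70*, *A830080D01Rik*, *Whrn*, *Cish* and *Il2ra*, with Pearson's r from 0.990 to 0.992. These libraries share the Treg gate, and the coefficients are descriptive.

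*Nrp1* (chr8:128358604-128503363, plus strand) did not follow *Lrrc32* outside the Treg gate. WT Tregs held 622 and 323 CPM and KO Tregs 264 and 330 CPM. WT non-Tregs held 102 and 50.5 CPM and KO non-Tregs 102 and 180 CPM. KO FoxP3+CD25- cells held 35.1 and 31.7 CPM, below every other library. *Nrp1* was thus lowest in cells that carried *Foxp3* transcript at 339 ± 30.8 CPM, and the libraries of these cells did not overlap those of either non-Treg group. WT Tregs exceeded WT non-Tregs by a log2 fold change of 2.63 ± 0.38 (FDR 0.00113). In KO mice the same difference was 1.08 ± 0.37, with both Treg libraries above both non-Treg libraries, and was not called (FDR 0.137). It was called with the mouse as a block (log2 1.10, FDR 0.000672), with no filter on low counts (FDR 0.0199) and with the compared libraries only (FDR 0.0431).

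Below the non-Tregs, *Nrp1* in KO FoxP3+CD25- cells differed by -2.08 ± 0.39 log2 units from KO non-Tregs (FDR 0.0280) and by -1.198 ± 0.39 from WT non-Tregs (FDR 0.307, not called). The first call was lost without KO FoxP3+CD25- replicate 1 (FDR 0.148), without KO FoxP3+CD25- replicate 2 (FDR 0.235) and without KO non-Treg replicate 2 (FDR 0.198), with the log2 fold change between -2.43 and -1.61 in all 4 such fits. With the mouse as a block its FDR was 5.03e-05. Against KO Tregs the fold change was -3.16 ± 0.40 (FDR 0.000847). *Nrp1* was followed most closely by *Tiam1*, *Ptger2*, *Entpd1*, *Pou2f2* and *Sh3bgrl* (r from 0.984 to 0.988 over 10 libraries, a description). Its r with *Lrrc32* was 0.703.

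Several genes of antigen-experienced T cells had the same low point. These were added after values had been seen. *Cd44*, an adhesion receptor raised on memory T cells, was 17.9 and 16.1 CPM in KO FoxP3+CD25- cells and 80.1 to 212 CPM in the other 8 libraries. The chemokine receptor gene *Cxcr3* was 12.6 and 9.85 CPM there and 25.3 CPM or more elsewhere. *S100a6* was 2.59 and 3.50 CPM there and 8.39 CPM or more elsewhere. *Cd44* fell by 3.17 on the log2 scale from KO non-Tregs (FDR 0.00016). The part of these genes' levels in the *Nrp1* difference was not tested.

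**Figure D2:**
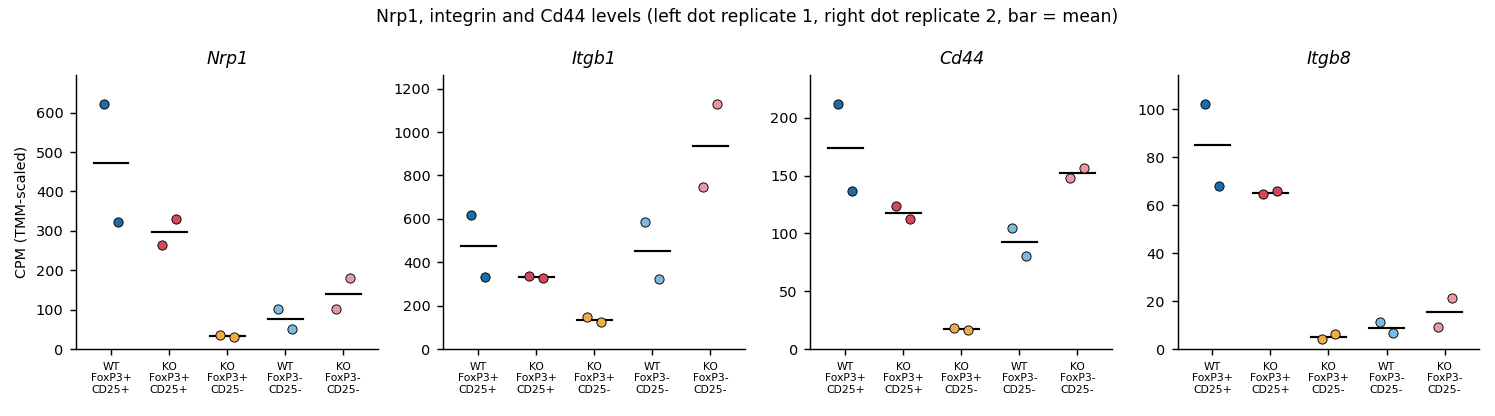
*Nrp1*, *Itgb1*, *Cd44* and *Itgb8* in the 10 libraries, in TMM-scaled CPM on linear axes from 0, by sorted group. Dots are libraries and bars are means of 2. The first 3 genes were at their lowest in both KO FoxP3+CD25- libraries, and *Itgb8* separated Tregs (64.4 CPM or more) from all other cells (21.3 CPM or less).

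The receptor genes split. The type I receptor *Tgfbr1* was higher in Tregs while the type II receptor *Tgfbr2* and the co-receptor betaglycan (*Tgfbr3*), which presents ligand to the type II chain, were lower. *Tgfbr1* measured 199 and 153 CPM in WT Tregs, 154 and 150 CPM in KO Tregs, and 54.6 to 76.5 CPM in the other 6 libraries. *Tgfbr2* measured 453 and 402 CPM in WT Tregs, 460 and 435 CPM in KO Tregs, and 725 to 861 CPM in the others. *Tgfbr3* measured 29.9 and 26.1 CPM in WT Tregs, 33.9 and 39.0 CPM in KO Tregs, and 79.5 to 118 CPM in the others. For all 3 genes the 4 Treg libraries stood clear of the other 6, and the share of all genes that did so was not counted. Between Tregs and non-Tregs alone, libraries did not overlap for 47% of all genes in WT and 46.5% in KO. *Tgfbr1* spans chr4:47353222-47414931, *Tgfbr2* chr9:116084293-116175360 and *Tgfbr3* chr5:107106570-107289629. Per kilobase of exon, *Tgfbr2* exceeded *Tgfbr1* in every group, by 96.7 against 9.29 RPKM in WT non-Tregs and by 52.3 against 26.9 RPKM in WT Tregs.

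The WT Treg against non-Treg log2 fold changes were 1.53 ± 0.15 for *Tgfbr1* (FDR 8.88e-05), -0.89 ± 0.13 for *Tgfbr2* (FDR 0.00111) and -2.07 ± 0.16 for *Tgfbr3* (FDR 2.34e-05). In KO cells they were 1.10 ± 0.15, -0.84 ± 0.13 and -1.45 ± 0.16 (FDR 0.00137, 0.00301 and 0.000365). These 6 calls held when any compared library was left out. On all 3 receptors, KO FoxP3+CD25- cells lay next to the non-Tregs. They differed from KO non-Tregs by 0.02 log2 units for *Tgfbr1* (95% interval -0.31 to 0.35), by -0.01 for *Tgfbr2* (-0.30 to 0.27) and by -0.08 for *Tgfbr3* (-0.41 to 0.25). The edgeR test called all 3 different from KO Tregs, with log2 fold changes of -1.08, 0.82 and 1.36 (FDR 0.00127, 0.00302 and 0.000468).

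The 250 bases before the RefSeq start of both signalling receptor genes are shown because their transcripts moved in opposite directions across the Treg gate. They are on the gene's strand, 5′ to 3′, in GRCm38, with the SMAD-type motif CAGAC (or GTCTG on the other strand) and the forkhead-type motif TGTTTAC (or GTAAACA) in capitals where present.
Tgfbr1 at chr4:47352972-47353221 (+): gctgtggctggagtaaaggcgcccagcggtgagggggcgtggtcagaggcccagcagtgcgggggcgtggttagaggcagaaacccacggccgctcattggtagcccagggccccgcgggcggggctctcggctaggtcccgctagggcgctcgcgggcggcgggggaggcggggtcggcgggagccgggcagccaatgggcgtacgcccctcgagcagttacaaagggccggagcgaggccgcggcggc
Tgfbr2 at chr9:116175364-116175613 (-): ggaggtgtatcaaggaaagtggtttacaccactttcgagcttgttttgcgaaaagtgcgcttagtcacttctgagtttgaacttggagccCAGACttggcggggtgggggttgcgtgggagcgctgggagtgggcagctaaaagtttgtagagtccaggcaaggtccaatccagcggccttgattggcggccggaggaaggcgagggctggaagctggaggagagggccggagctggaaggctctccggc
The *Tgfbr2* window holds CAGAC once and this *Tgfbr1* window holds neither motif. The table lists another *Tgfbr1* start inside the gene, whose window at chr4:47385966-47386215 (47.2% A and T) holds the SMAD-type letters once. Of 32851 windows of this length in the RefSeq table, 42.2% hold the SMAD-type letters and 3.17% the forkhead-type letters. The windows also differ in base composition, with 25.2% A and T before *Tgfbr1*, 41.6% before *Tgfbr2* and a median of 47.6% over all windows. A match is a description of letters and not a site. Of the 10 genes, 7 had an entry in that table.

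The ligand gene *Tgfb1* (chr7:25687002-25705077) was higher in WT Tregs (256 and 203 CPM) than in WT non-Tregs (153 and 149 CPM). KO Tregs held 215 and 194 CPM, KO FoxP3+CD25- cells 169 and 148 CPM, and KO non-Tregs 188 and 147 CPM. The Treg libraries were the 4 highest of the 10. The WT difference was 0.61 ± 0.15 log2 units (FDR 0.0214) and the KO difference 0.29 ± 0.15 (FDR 0.404, not called). *Furin* (chr7:80388585-80405436), the convertase that cuts the TGF-beta precursor, was 124 and 97.5 CPM in WT Tregs and 78.9 and 77.8 CPM in WT non-Tregs, a difference of 0.50 ± 0.13 (FDR 0.0278). In the 3 KO groups *Furin* lay between 96.8 and 113 CPM, with a KO Treg to KO non-Treg difference of 0.09 ± 0.13 (FDR 0.841). Both WT calls were lost without WT Treg replicate 1, either WT non-Treg library or WT mouse 1 (FDR 0.105 to 0.292 for *Tgfb1* and 0.126 to 0.311 for *Furin*). *Tgfb1* in KO FoxP3+CD25- cells was below WT Tregs (-0.53 ± 0.15, FDR 0.0406). That call was lost without WT Treg replicate 1, either KO FoxP3+CD25- library or WT mouse 1 (FDR 0.0768 to 0.263). *Furin* shares 118 exon bases, 1.29% of its own, with the antisense gene *Gm44851*. *Nrp1* shares 80 with *Mir1903* and *Tgfbr3* 297 with *Gm43422*, on the same strand. The strand setting of the counting was not stated.

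The intracellular members stayed close between groups, and none of *Smad3*, *Smad7* and *Ski* was called in any comparison without the block, by edgeR or by DESeq2. *Smad3*, a receptor-regulated SMAD at chr9:63646767-63757994, measured 138 and 115 CPM in WT Tregs and 105 and 79.2 CPM in WT non-Tregs, with KO values of 127 and 93.9 CPM in Tregs, 109 and 81.2 CPM in FoxP3+CD25- cells and 97.1 and 71.8 CPM in non-Tregs. In every group replicate 1 was the higher. The Treg to non-Treg differences of 0.45 ± 0.21 in WT and 0.39 ± 0.22 in KO were not called (FDR 0.244 and 0.450), and both were with the mouse as a block (FDR 0.00205 and 0.0111). *Smad7*, the inhibitory SMAD, measured 503 and 392 CPM in KO FoxP3+CD25- cells, 324 and 258 CPM in KO Tregs and 390 and 255 CPM in KO non-Tregs, again with replicate 1 the higher. WT Tregs held 364 and 252 CPM and WT non-Tregs 408 and 321 CPM. No *Smad7* difference was called without the block. With it, KO FoxP3+CD25- cells were above KO non-Tregs by 0.49 log2 units (FDR 0.00815) and above KO Tregs by 0.62 (FDR 0.000796). *Ski* (chr4:155154075-155222592) stayed between 386 and 492 CPM in all 10 libraries and was called in no comparison, with or without the block.

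Between WT Tregs and WT non-Tregs, 7 of the 10 genes were called, 5 higher and 2 lower, where 10.9% of all genes tested were called (7.15% higher, 3.75% lower). Between KO Tregs and KO non-Tregs 4 were called, 2 higher and 2 lower, against 6.34% of all genes (3.52% and 2.81%). With the mouse as a block these counts were 8 and 6, against 19.1% and 12%. Against KO Tregs, KO FoxP3+CD25- cells had 5 members called (background 7.01%; 2.25% higher, 4.76% lower), with *Tgfbr2* and *Tgfbr3* higher and *Lrrc32*, *Nrp1* and *Tgfbr1* lower. With the block 7 were called, *Tgfb1* (FDR 0.0229) and *Smad7* being added (background 15.1%). Against WT Tregs 6 were called (background 11.2%; 3.88% higher, 7.34% lower): *Tgfbr2* and *Tgfbr3* higher, and *Lrrc32*, *Nrp1*, *Tgfbr1* and *Tgfb1* lower. Against KO non-Tregs 1 was called (*Nrp1*, lower; background 1.67%, with 0.319% higher and 1.35% lower), which became 3 of 10 with the block (*Nrp1*, *Lrrc32* and *Smad7*; background 5.7%), and against WT non-Tregs 1 was called (*Lrrc32*, higher; background 0.768%, with 0.355% higher and 0.413% lower). These comparisons share libraries. With 2 libraries against 2, non-overlap alone is common. The libraries did not overlap for 47% of all genes between WT Tregs and WT non-Tregs, for 46.5% between KO Tregs and KO non-Tregs, and for 27.7% and 38.3% between KO and WT Tregs and non-Tregs. For KO FoxP3+CD25- cells the shares were 39.3% against KO non-Tregs, 49.3% against KO Tregs, 37.5% against WT non-Tregs and 47.7% against WT Tregs. The share of all genes whose 4 Treg libraries stood clear of the other 6 was not counted.

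**Figure D3:**
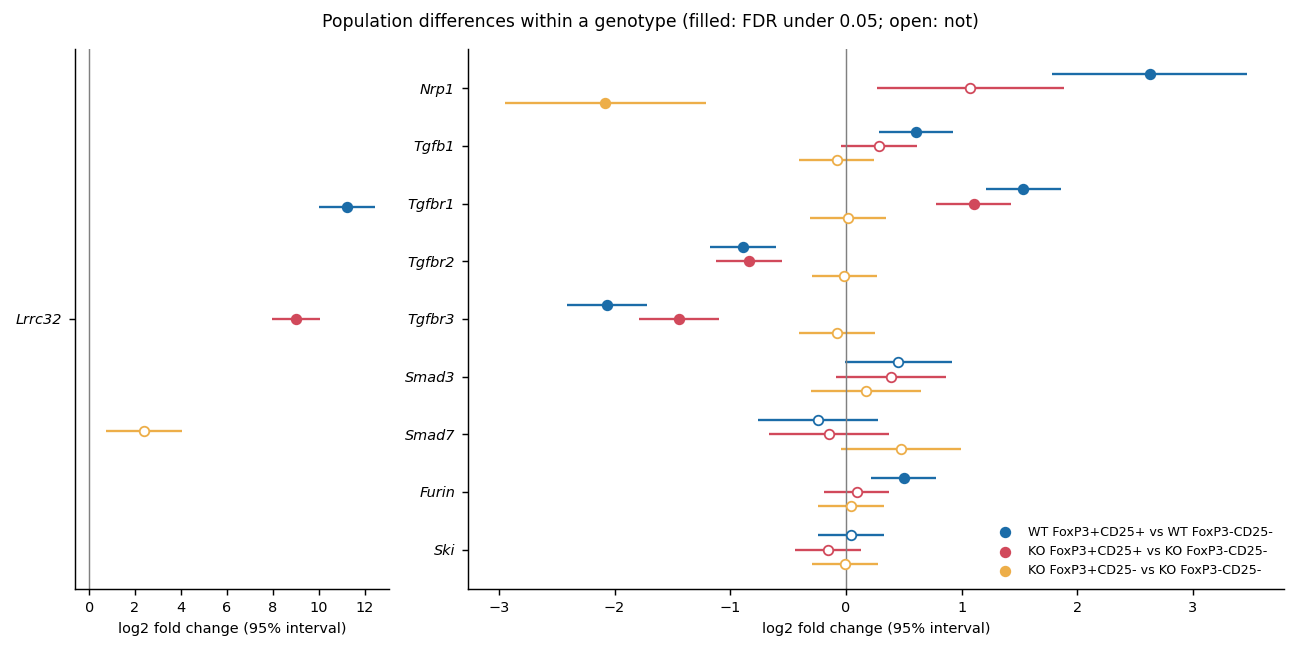
Log2 fold change with 95% interval from edgeR's quasi-likelihood fit for 3 comparisons within a genotype, *Lrrc32* on an axis of its own and the other 9 genes beside it; filled points have an FDR under 0.05. KO FoxP3+CD25- cells lay near 0 against KO non-Tregs for the 3 receptors and apart from it for *Nrp1* (-2.08).

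Whether the genotype moved these genes within a population was compared next. None of the 10 was called between KO and WT Tregs, where the background was 0.00725% (1 gene), and none between KO and WT non-Tregs, where it was 0.145%. Below 0.05 without adjustment, edgeR had 1 of the 10 in Tregs, beside 4.29% of all genes, and 2 in non-Tregs, beside 8.02%, and DESeq2 called none at its adjusted threshold. The intervals set how far these data reach. In Tregs the KO to WT difference was 0.27 log2 units for *Lrrc32* (95% interval -0.30 to 0.83), -0.67 for *Nrp1* (-1.46 to 0.13) and -0.17 for *Tgfb1* (-0.49 to 0.15). For *Tgfbr1* it was -0.21 (-0.52 to 0.11) and for *Tgfbr2* 0.07 (-0.22 to 0.35). *Tgfbr3* was higher in both KO Treg libraries than in both WT Treg libraries (0.38, 0.02 to 0.74; FDR 0.9999). A 2-fold change lies outside the Treg intervals of 9 of the 10 genes, all but *Nrp1*. The *Nrp1* difference in Tregs ran from -1.07 to -0.12 when 1 compared library or WT mouse 1 was left out. WT mouse 1 was the 1 female, so sex was not balanced between the genotypes, and its part was not tested.

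In non-Tregs the KO to WT difference was 0.88 for *Nrp1* (0.07 to 1.70; FDR 0.575) and 0.38 for *Furin* (0.10 to 0.66; FDR 0.425), neither called. The *Nrp1* libraries of both genotypes overlapped, since KO replicate 1 (101.7 CPM) lay just under WT replicate 1 (102.0 CPM), while both KO *Furin* libraries exceeded both WT ones. *Lrrc32* had 8 reads in KO and 2 in WT, a ratio of 6.38 (1.27 to 61.7), all from mouse 1 of each genotype. This interval covers counting error only, and the difference was not called. With 1 compared library or WT mouse 1 left out, its log2 fold change ran from -2.83 to 5.22, on both sides of no change.

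The Treg to non-Treg difference itself was compared between genotypes. For *Nrp1* it was smaller in KO by 1.55 ± 0.52 log2 units (FDR 0.80, not called), and with mice as blocks by 1.54 (FDR 0.00787). With 1 compared library or WT mouse 1 left out and no block, KO minus WT ran from -2.14 to -1.01 for this gene. *Nrp1* was the 1 member called with the block, where 1.07% of all genes were called. No member was called without the block, where no gene at all was. Without adjustment, 3 members and 685 of all genes were under 0.05, and DESeq2 called 25 genes and no member. For *Tgfbr3* the difference was 0.62 ± 0.22 (FDR 0.856, or 0.109 with the block) and for *Tgfbr1* -0.43 ± 0.21 (FDR 0.9999).

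**Figure D4:**
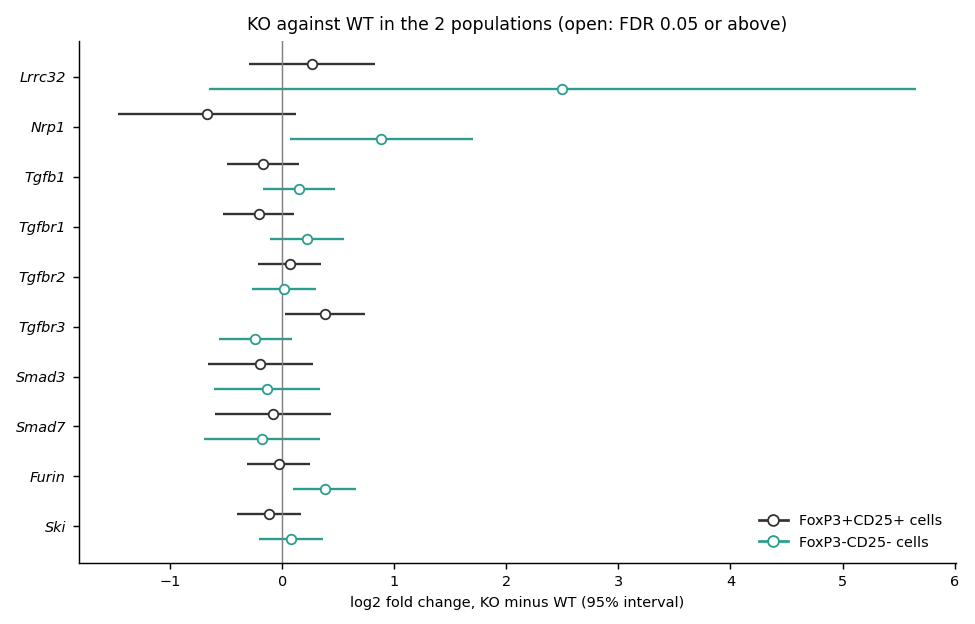
KO minus WT log2 fold change with 95% interval from edgeR's quasi-likelihood fit, for the 10 genes in FoxP3+CD25+ (Treg) and FoxP3-CD25- (non-Treg) cells; open points have an FDR of 0.05 or above, which holds for all. The interval of *Lrrc32* in non-Tregs is wide, from 8 reads in KO against 2 in WT.

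Beyond the 10 genes, 5 lists of the same pathway were read. In the list for display and activation of latent TGF-beta, 10 of 18 genes could be tested. *Itgb8*, the integrin beta-8 chain, was 102 and 67.9 CPM in WT Tregs and 64.4 and 66.0 CPM in KO Tregs, against 4.04 to 21.3 CPM elsewhere. It was called higher in Tregs in both genotypes (3.22 ± 0.36, FDR 0.000219 in WT; 2.07 ± 0.35, FDR 0.00524 in KO) and lower in KO FoxP3+CD25- cells than in KO Tregs (-3.61 ± 0.40, FDR 0.000384). Its partner chain *Itgav* was higher in WT Tregs (0.98 ± 0.13, FDR 0.000654). Between WT Tregs and WT non-Tregs 3 of the 10 were called higher (*Itgb8*, *Itgav* and *Mmp9*) and 2 lower (*Tgfb3* and *Nrros*), with a median log2 fold change of 0.04 beside -0.02 for all genes tested, of which 7.15% were called higher and 3.75% lower. The *Mmp9* and *Nrros* calls were lost without WT Treg replicate 1, either WT non-Treg library or WT mouse 1. *Mmp9* was low, at 2.49 ± 1.18 CPM in WT Tregs and 0.269 ± 0.0883 CPM in WT non-Tregs.

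*Tgfb3*, another TGF-beta ligand gene, was higher in non-Tregs (WT Treg against non-Treg -3.06 ± 0.63, FDR 0.00865, and KO -3.94 ± 0.58, FDR 0.00231). The WT call was lost without WT non-Treg replicate 1 (FDR 0.0622) or WT mouse 1. *Tgfb3* had 6 and 1 reads in WT Tregs and 5 and 2 in KO Tregs, against 51 and 30 in WT non-Tregs and 50 and 56 in KO non-Tregs. KO FoxP3+CD25- cells had 2 and 12 reads, and were called below KO non-Tregs (-3.08 ± 0.50, FDR 0.0119), a call lost without either KO FoxP3+CD25- library or KO non-Treg replicate 2 (highest FDR 0.0873). *Itgb1*, the integrin beta-1 chain, was 148 and 123 CPM in KO FoxP3+CD25- cells, its lowest, and 745 and 1130 CPM in KO non-Tregs, its highest (-2.79 ± 0.34, FDR 0.00277, or 0.0590 without KO FoxP3+CD25- replicate 2). KO Tregs held 335 and 329 CPM and the WT libraries 321 to 618 CPM. *Mmp14*, a membrane metalloprotease that can free latent TGF-beta, was 13.8 to 25.97 CPM in the 6 KO libraries and 1.74 to 5.55 CPM in the 4 WT libraries. It was called higher in KO non-Tregs than WT non-Tregs (3.15 ± 0.37, FDR 0.00984) and not in KO against WT Tregs (1.66 ± 0.34, FDR 0.922). The non-Treg call was lost without either WT non-Treg library, KO non-Treg replicate 1 or WT mouse 1 (highest FDR with a library left out 0.174).

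Among 9 tested receptors of the TGF-beta superfamily, *Bmpr2*, a type II receptor for BMPs, was higher in Tregs (59.8 and 45.1 CPM in WT, 54.2 and 43.5 CPM in KO) than in the other cells (15.9 to 28.3 CPM). Its log2 fold change was 1.70 ± 0.21 in WT (FDR 0.000407) and 1.196 ± 0.21 in KO (FDR 0.00668, lost without KO Treg replicate 1 or KO non-Treg replicate 2, at most 0.0749). *Acvrl1*, a type I receptor, went the other way, at 6.78 to 8.27 CPM in Tregs and 11.8 to 29.98 CPM elsewhere (-1.96 ± 0.21 in WT, FDR 0.000154; -1.37 ± 0.22 in KO, FDR 0.00354). Of the 9, 2 were called higher in WT Tregs (*Bmpr2* and the type I receptor gene *Acvr1c*). Another 2 were called lower (*Acvrl1* and the type I receptor gene *Acvr1b*). *Acvr1c* was low, at 4.17 ± 0.111 CPM in WT Tregs and 0.289 ± 0.175 CPM in WT non-Tregs. The median log2 fold change of the 9 was 0.66 beside -0.02 for all genes tested, of which 10.9% were called. The *Acvr1b* call was lost without WT Treg replicate 1, either WT non-Treg library (highest FDR 0.1103) or WT mouse 1 (FDR 0.1468).

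Of the neuropilin partners, 10 of 19 were tested. *Sema4a*, a semaphorin gene, was 43.0 to 73.0 CPM in the 4 Treg libraries and 170 to 213 CPM in the other 6 (-1.81 ± 0.20 in WT, FDR 0.000226; -1.47 ± 0.20 in KO, FDR 0.00155). The plexin genes *Plxna1*, *Plxnb1*, *Plxnb2* and *Plxnd1*, semaphorin receptors, were called higher in WT Tregs (log2 fold changes 0.85 to 2.11). In KO Tregs against KO non-Tregs their log2 fold changes were 0.50, 0.65, 1.23 and 1.21, none called (FDR 0.141 to 0.423), and the difference between the genotypes was called for none of them, with or without the mouse as a block. *Plxnd1* was 39.1 ± 4.91 CPM in WT Tregs and 9.20 ± 0.125 CPM in WT non-Tregs, and 59.2 ± 26.9 CPM in KO Tregs and 25.8 ± 11.9 CPM in KO non-Tregs. All 4 WT calls were lost without WT mouse 1 (FDR 0.133 to 0.473). With single libraries left out, *Plxnb1* kept its call, *Plxna1* lost it without WT Treg replicate 2 or WT non-Treg replicate 1 (highest FDR 0.256), and *Plxnb2* and *Plxnd1* lost it without WT Treg replicate 1 or either WT non-Treg library (highest FDR 0.373 and 0.0889). Beside these 4, *Sema4a* was the 1 partner called lower in WT Tregs, and the median of the 10 was 0.63, where 7.15% of all genes were called higher and 3.75% lower. *Nrp2*, the paralogue of *Nrp1*, was low throughout, at 0.0367 to 0.199 RPKM in group means against 3.41 RPKM or more for *Nrp1*.

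The SMADs and their regulators were mostly not called, with 3 of the 22 tested (of 26) called in WT Tregs, all higher, and a median log2 fold change of -0.07. The share called is near that of all genes in this comparison (10.9%), and nothing is read from it. The 3 genes were *Skil*, *Pmepa1* and *Ldlrad4*. *Skil*, the SKI paralogue SnoN, was 365 and 278 CPM in WT Tregs and 228 and 193 CPM in WT non-Tregs (0.61 ± 0.14, FDR 0.0172). *Pmepa1*, which sequesters SMADs, was 56.0 and 41.2 CPM against 31.3 and 22.0 CPM (0.86 ± 0.20, FDR 0.0198), and the related *Ldlrad4* was 78.2 and 54.6 CPM against 31.9 and 25.8 CPM (1.198 ± 0.18, FDR 0.00126). In KO FoxP3+CD25- cells, *Smad4* and *Smad5* were called higher than in KO Tregs (0.39 and 0.51, FDR 0.0360 and 0.0449), where 7.01% of all genes were called. Against WT Tregs, *Smurf2* was called higher there (0.53, FDR 0.0282) and *Skil* lower (-0.60, FDR 0.0197), where 11.2% were called. The *Smad4* and *Smad5* calls were lost with no filter on low counts and whichever compared library was left out. That of *Smad4* was also lost with DESeq2. The *Smurf2* and *Skil* calls were lost with the compared libraries only and without WT Treg replicate 1, KO FoxP3+CD25- replicate 1 or WT mouse 1. That of *Smurf2* was also lost without WT Treg replicate 2, and that of *Skil* without KO FoxP3+CD25- replicate 2. *Skil* and *Pmepa1* were also called in KO Tregs against KO non-Tregs (0.67 and 0.88, FDR 0.0181 and 0.0312), and *Ldlrad4* was not (0.65, FDR 0.0587). The *Skil* and *Pmepa1* calls in KO were lost whichever compared library was left out (highest FDR 0.152 and 0.248), and those in WT without WT Treg replicate 1, WT non-Treg replicate 2 or WT mouse 1 (highest with a library left out 0.152 and 0.164).

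Of 7 tested genes of the TGF-beta responsive list, *Itgae*, the CD103 integrin chain, was 67.2 to 156 CPM in Tregs and 0.722 to 4.85 CPM in the other 6 libraries (5.97 ± 0.51 in WT, FDR 4.03e-05; 5.07 ± 0.52 in KO, FDR 0.000274). *Id2*, an inhibitor of E proteins, was lower in Tregs (-1.44 ± 0.27, FDR 0.00574 in WT; -1.89 ± 0.28, FDR 0.00231 in KO), and its WT call was lost without WT non-Treg replicate 1 (FDR 0.0570) or WT mouse 1 (FDR 0.136). *Id3*, its relative, was higher in KO than WT non-Tregs (76.4 and 61.3 CPM against 28.7 and 31.6 CPM, 1.19 ± 0.18, FDR 0.0326), a call lost whichever of the 4 libraries was left out (highest FDR 0.277) and without WT mouse 1 (FDR 0.0663). *Itgae* in KO FoxP3+CD25- cells was 4.85 and 2.41 CPM, against 79.3 and 84.6 CPM in KO Tregs (-4.56 ± 0.49, FDR 0.000331). Against WT Tregs, KO FoxP3+CD25- cells had *Itgae* and *Klf10* called lower and *Id2* higher, where 11.2% of all genes were called. The *Klf10* call (-0.75, FDR 0.0322) was lost with the compared libraries only. It was also lost without WT Treg replicate 1, either KO FoxP3+CD25- library or WT mouse 1. The *Id2* call in this comparison was lost without either WT Treg library, KO FoxP3+CD25- replicate 1 or WT mouse 1. In WT Tregs 2 of the 7 were called higher (*Itgae* and *Id3*) and *Id2* lower, where 10.9% of all genes were called. The *Id3* call was lost without WT Treg replicate 2 or either WT non-Treg library (highest FDR 0.124).

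**Figure D5:**
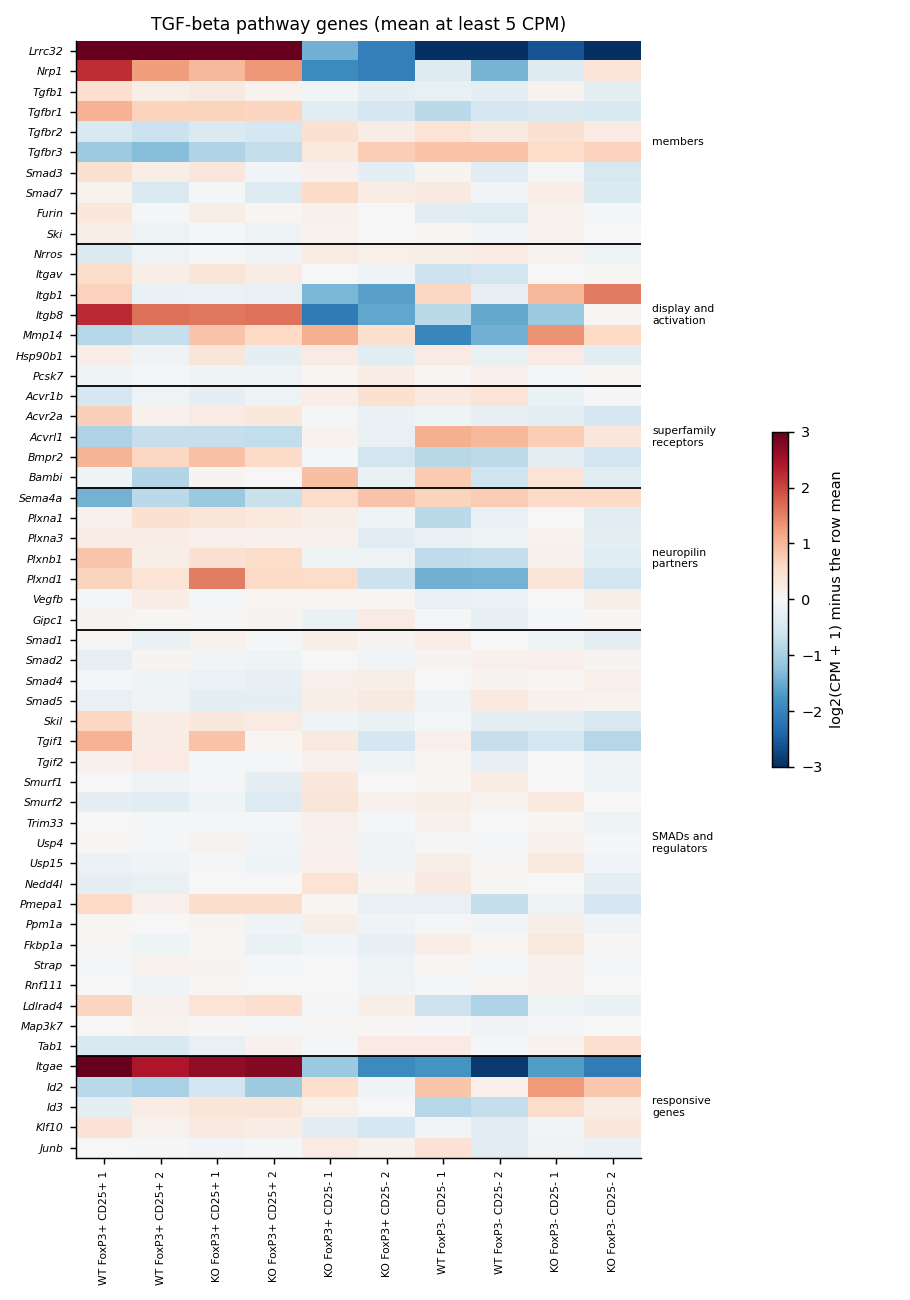
Centred log2(CPM + 1) of 55 genes of the TGF-beta pathway (the 10 members and those of the 5 lists with a mean of at least 5 CPM) in the 10 libraries; rows are genes, columns libraries, and colours are cut at -3 and 3. *Lrrc32*, *Itgb8* and *Itgae* marked the 4 Treg columns, *Nrp1* and *Itgb1* were lowest in the KO FoxP3+CD25- columns, and most SMAD genes varied little.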

How the data were processed

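The authors sequenced libraries (NEBNext Ultra, 50-base reads) from sorted cells and, per the submitters' notes, aligned them to mm10 (GRCm38) with HISAT2 (version 2.1.0) and counted with HTSeq (version 0.11.1). What the authors deposited is a raw read count for each gene symbol, with no normalization or filter. Reads on genes were 26.0% to 28.5% of all reads, and HTSeq's tallies of unassigned reads were left out. The strand setting and annotation were not given in the sources used here.

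All 10 libraries entered 1 fit with a mean per group in edgeR (version 4.0.16, limma 3.58.1, R 4.3.3): filterByExpr (minimum count 10), TMM, the newer quasi-likelihood fit, two-sided tests, FDR 0.05, 5 residual degrees of freedom. There were 9 comparisons. RPKM used exon lengths of GENCODE M21 (GRCm38), which may not be the authors' annotation. Alternatives were no filter, CPM above 1 in at least 2 libraries, RLE scaling, DESeq2 (version 1.42.0), the older quasi-likelihood method, the compared libraries only, a replicate block, and each library or WT mouse 1 left out. The fit was tried on simulated counts with the same spread for every gene and no deviation shared by the libraries of a mouse. That trial therefore says nothing about pairing by mouse in the real libraries. The genes and lists were chosen with earlier results of these data known, and the memory genes after their values were seen. Members were always named, as were up to 8 genes a list by lowest p among those called anywhere, and the 5 genes most like *Lrrc32* and *Nrp1*.

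Same-numbered libraries of a genotype deviated together (correlation over 13796 genes 0.303 in WT and 0.421 to 0.445 in KO), which was taken as pairing by mouse; across genotypes it was -0.0114 to 0.114, and the number pairs nothing there. Nothing says that the mice were separately bred or processed, so p-values measure the spread between these libraries.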

Additional observations from a re-analysis of the deposited data

Results flagged for a closer look

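These results were listed because the KO effect differed between Tregs and non-Tregs. With the mouse as a block, the Treg minus non-Treg log2 difference in KO minus that in WT was -1.54 for *Nrp1* (FDR 0.00787), -1.34 for *Ikzf2* and -1.64 for *Tigit*, which were higher in Tregs in WT and less so in KO (2.63 and 1.08, 4.09 and 2.76, and 2.95 and 1.21 in the fit without the block). It was -1.55 for *Itgb1* (FDR 0.00755), which went from 0.07 in WT to -1.50 in KO. With the block 1.07% of all genes were called. *Ikzf2* and *Tigit* belong to a list of 8 Treg markers whose other genes were not called. These were *Il2ra* (-1.73, FDR 0.0965), *Ctla4* (-0.78), *Foxp3* (-0.57), *Tnfrsf4* (-0.43), *Tnfrsf18* (-0.03) and *Ikzf4* (0.14). Of the genes added after values were seen, *Cxcr3* (-1.81) went from -0.28 to -2.11 and *Cd44* (-1.27) from 0.91 to -0.37. Also called were *Tiam1* (-1.46), *Ptger2* (-1.22), *Pou2f2* (-0.91) and *Sh3bgrl* (-0.66). These were picked for their likeness to *Nrp1* over the same libraries, which fixes their sign, so they add nothing to it. The fifth gene so picked, *Entpd1* (-1.47, FDR 0.131), was not called. *Satb1*, the targeted gene, was called with the opposite sign (0.57, FDR 0.0450). None of these genes was called without the block. *Tgfbr3* was listed because its libraries moved in opposite directions, up in KO Tregs (33.9 and 39.0 CPM against 29.9 and 26.1 CPM) and down in KO non-Tregs (94.6 and 104 CPM against 117 and 118 CPM). Only the 10 members were screened in this way, and the share of all genes that did the same was not counted. Between KO and WT, libraries did not overlap for 27.7% of all genes in Tregs and 38.3% in non-Tregs. The edgeR test of that difference (0.62, FDR 0.856) missed the threshold.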

How the results depend on the processing

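Over the alternatives, 1052 fold changes of the 10 genes kept their side of the threshold, 23 lost a call, 14 gained one and no called fold change turned its sign. The number of members called changed by over 1.5 times in 3 comparisons. Between KO FoxP3+CD25- cells and KO non-Tregs it went from 1 to 3 with the replicate block and to 0 to 2 with 1 library left out. Between KO FoxP3+CD25- cells and WT non-Tregs it went from 1 to 2 with no filter, to 0 with the older quasi-likelihood method and to 0 whichever library was left out. For the difference of Treg effects between genotypes it went from 0 to 1 with the block. The cause was not tested. Between a KO and a WT group the block was the replicate number alone, which pairs no mice there. The replicate block, paired by mouse only within a genotype, raised the genes called in all from 1504 to 2634 (WT Treg against non-Treg), 874 to 1649 (KO Treg against non-Treg), 230 to 786, 967 to 2090 and 106 to 217 (KO FoxP3+CD25- cells against KO non-Tregs, KO Tregs and WT non-Tregs), 1 to 4 and 20 to 108 (KO against WT Tregs and non-Tregs) and 0 to 148 (difference of Treg effects). Without the filter, counts were 411 and 238 for KO FoxP3+CD25- cells against KO and WT non-Tregs, 5 and 91 for KO against WT Tregs and non-Tregs and 7 for the difference, and with DESeq2 366, 217, 5, 111 and 25. With only the compared libraries, KO FoxP3+CD25- cells against WT Tregs gave 926 (1548 as reported), and KO against WT gave 0 in Tregs and 66 in non-Tregs. Leaving out 1 library or WT mouse 1 gave 715 to 2185 calls in WT Treg against non-Treg, 396 to 441 in KO Treg against non-Treg, 30 to 169, 410 to 562, 25 to 57 and 790 to 1981 for KO FoxP3+CD25- cells against KO non-Tregs, KO Tregs, WT non-Tregs and WT Tregs, 1 to 7 and 0 to 14 for KO against WT Tregs and non-Tregs, and 0 to 121 for the difference, where 121 was the fit without WT Treg replicate 2. An arm left with 1 library was assumed to vary like the other groups. Depth limits *Lrrc32* outside Tregs, where 2 reads were the whole WT signal.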
